A study of Mus musculus with 24 samples.

Results

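The nonclassical MHC class I genes H2-M2, H2-M3, H2-T22, H2-T23, H2-Q4, H2-Q6 and H2-Q7 were examined in RNA-seq libraries of mouse bone marrow-derived macrophages (BMDMs, macrophages grown from marrow in culture). The 7 genes were found by symbol among the 24273 genes of the table, and all 7 passed the filter on low values. The family was selected on the level of H2-M2 in untreated cells, which had one of the largest rises in FosKO, so the genotype difference at 0 h is given as a description, without a test, for every member. For H2-M2, any comparison that uses the 0 h libraries is likewise given as values only. Control cells were labelled LysM-Cre, and FosKO cells were LysM-Cre with both Fos alleles floxed, all on the C57BL/6 background. The study text describes the controls as carrying 1 floxed Fos allele, whereas the series design names LysM-Cre alone. Cre was expressed from the lysozyme locus Lyz2, which is active in myeloid cells. Cells of each genotype were left untreated (0 h) or received 100 ng/ml LPS, a ligand of TLR4, for 0.5, 1 or 2 h, with 3 libraries in each of the 8 groups. The study describes biological replicates, but no animal is named for any library.

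Class I molecules pair a heavy chain with beta-2-microglobulin. The classical chains H2-K1 and H2-D1 are highly polymorphic and present peptides to CD8 T cells. The nonclassical chains vary little and have more specialised ligands or receptors. H2-T23 encodes Qa-1, which presents leader peptides of other class I chains to the NK cell receptor CD94/NKG2A. H2-M3 presents N-formylated peptides of bacterial or mitochondrial origin, and H2-T22 is bound by receptors of some gamma-delta T cells without needing a peptide. H2-Q6 and H2-Q7 encode Qa-2 antigens, and H2-Q4 is a further member of the Q region.

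All 7 members are protein-coding genes of the MHC on chromosome 17 in GRCm38 (GENCODE vM21). H2-Q4 lies at chr17:35379617-35385290, H2-Q6 at chr17:35424850-35430055 and H2-Q7 at chr17:35439155-35443773, on the plus strand. H2-T23 at chr17:36029773-36032855 and H2-T22 at chr17:36037128-36042747 lie on the minus strand. H2-M3 at chr17:37270220-37274484 is on the plus strand and H2-M2 at chr17:37480851-37483552 on the minus strand.

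The 250 bases before the start of 6 members are shown as a description. Whether the letters marked there have a part in how the members moved was not tested. Sequences are from RefSeq (GRCm38.p6), 5′ to 3′ on the gene's strand, and all 7 members had an entry. Capitals mark a match to the interferon-stimulated response element (ISRE, GAAA, any 2 bases, GAAA) or to a kappaB motif (GGGA, any 2 bases, TCCC, or the variant GGG, any 2 bases, TTCCC, which was added after the sequences had been seen and overlaps the first).
H2-M2: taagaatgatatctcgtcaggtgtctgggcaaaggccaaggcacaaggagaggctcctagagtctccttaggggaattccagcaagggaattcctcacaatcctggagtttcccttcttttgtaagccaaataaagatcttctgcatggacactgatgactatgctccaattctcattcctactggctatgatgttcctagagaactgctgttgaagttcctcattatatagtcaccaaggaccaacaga
H2-T22: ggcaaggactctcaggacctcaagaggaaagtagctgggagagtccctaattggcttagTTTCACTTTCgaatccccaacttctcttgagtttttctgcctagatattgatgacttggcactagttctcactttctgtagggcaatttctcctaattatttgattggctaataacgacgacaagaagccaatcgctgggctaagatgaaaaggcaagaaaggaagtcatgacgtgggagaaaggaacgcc
H2-T23: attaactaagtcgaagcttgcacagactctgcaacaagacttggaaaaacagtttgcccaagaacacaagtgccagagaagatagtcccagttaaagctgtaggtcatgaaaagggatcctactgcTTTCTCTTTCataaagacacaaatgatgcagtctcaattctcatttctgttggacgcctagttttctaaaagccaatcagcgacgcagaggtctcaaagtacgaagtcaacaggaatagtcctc
H2-Q4: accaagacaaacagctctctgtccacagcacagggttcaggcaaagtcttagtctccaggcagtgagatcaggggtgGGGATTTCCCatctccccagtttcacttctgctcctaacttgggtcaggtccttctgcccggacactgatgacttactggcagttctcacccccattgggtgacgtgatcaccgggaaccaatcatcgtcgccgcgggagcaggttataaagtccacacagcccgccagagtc
H2-Q6: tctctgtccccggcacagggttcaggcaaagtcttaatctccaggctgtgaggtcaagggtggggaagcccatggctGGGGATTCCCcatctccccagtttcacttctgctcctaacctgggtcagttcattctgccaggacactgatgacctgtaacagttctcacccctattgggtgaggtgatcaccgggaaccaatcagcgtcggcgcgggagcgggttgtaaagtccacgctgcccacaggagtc
H2-Q7: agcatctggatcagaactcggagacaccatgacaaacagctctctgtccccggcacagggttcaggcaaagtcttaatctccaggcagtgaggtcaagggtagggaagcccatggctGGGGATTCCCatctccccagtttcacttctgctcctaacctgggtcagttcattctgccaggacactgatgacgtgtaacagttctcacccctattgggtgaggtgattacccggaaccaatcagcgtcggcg

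Both strands were searched. The ISRE letters were found in H2-T22 (bases -191 to -182) and H2-T23 (-124 to -115), on the minus strand, and in 3.04% of 27025 promoters of this length. Positions count back from the RefSeq start. For H2-T23 that start lies inside the GENCODE gene given above, so 154 bases of its window, with the marked letters, are within that gene, as are 5 bases for H2-T22 and 14 for H2-M3. The kappaB letters were found in H2-Q4 (-173 to -164) and in 0.544% of promoters. The variant was found in H2-Q4 at the same place, in H2-Q6 (-173 to -164), in H2-Q7 (-133 to -124) and in 1.44% of promoters; H2-K1 and H2-D1 held it too. The Q, K and D promoters are close copies of each other and are not independent. None of these letters occurred in the windows of H2-M2 and H2-M3, and the AP-1 letters TGANTCA (6.87% of promoters) and the CRE letters TGACGTCA (1.62%) occurred in no member. For the ISRE only the exact letters were searched, and no looser form was added as for kappaB. A near form, TTTCACTTCT, stands unmarked in H2-M3, H2-Q4, H2-Q6, H2-Q7, H2-K1 and H2-D1, and TTTCCCTTCT in H2-M2. The share of promoters with a near form was not counted. The marked letters therefore do not divide the members into those with and without an ISRE.

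Values are the deposited log2 normalised values, and a difference of 1 is 2-fold. Depth per library is unknown. Untreated cells labelled FosKO held more Fos, the targeted gene, than control cells (12.60 ± 0.17 against 11.11 ± 0.05, SD, n = 3). The same held after 1 h (12.78 against 11.15) and 2 h (12.80 against 9.52) of LPS, while at 0.5 h Fos was lower (12.75 against 13.52). The table has a single value for Fos, in which the floxed part cannot be told from the rest of the transcript. The level of Fos thus does not check the labels, and every direction below rests on them. The LPS response of Fos differed by label. From 0 h to 0.5 h Fos rose by 2.41 in LysM-Cre (called by limma) and by 0.15 in FosKO (not called), a called difference of -2.26. At 1 h and 2 h it stood 0.03 and -1.60 from 0 h in LysM-Cre, against 0.18 and 0.20 in FosKO. What this response says of the labels was not tested. Lyz2, the gene that carries Cre, was 10.94 ± 0.09 in LysM-Cre and 16.10 ± 0.02 in FosKO at 0 h, a difference of 5.17, and it differed by 4.89 to 5.06 at the other times. Lyz2 was the gene with the largest rise of all genes tested at each time. In every genotype difference below, the deletion of Fos and this difference at the Cre locus cannot be told apart. All 7 macrophage markers were tested, while 0 of 8 NK and T cell markers passed the filter, with a summed level of 6.36 to 8.72 over all libraries. Of 3 tested neutrophil and progenitor markers, S100a9 was lower in FosKO at every time (-0.81, -0.65, -1.04 and -1.07 at 0, 0.5, 1 and 2 h) and S100a8 at 0, 1 and 2 h (-0.47, -0.47 and -0.60), while Cd34 was higher at 1 h and 2 h (0.45 and 0.41). The 1 tested B cell marker, Cd79b, was lower at 0.5, 1 and 2 h (-0.38, -0.29 and -0.26), and of 3 dendritic cell markers Xcr1 was higher at 1 h (0.42) and Zbtb46 lower at 2 h (-0.96). Of 4 stromal markers Col3a1 was lower at 2 h (-0.53). The 7 macrophage markers, on 8 rows, had 4 rows higher at each time and 3, 1, 2 and 0 lower. The part of these markers in the genotype differences was not tested. In 5 libraries (LysM-Cre 0.5 h replicate 3, LysM-Cre 1 h replicates 2 and 3, FosKO 0.5 h replicate 1, FosKO 1 h replicate 1) the 18S transcript Rn18s-rs5 was 16.65 to 17.00, against 18.57 to 19.39 in the other 19. FosKO 0.5 h replicate 3 was the highest of its group for 7 of 7 members. FosKO 2 h replicate 3 and LysM-Cre 1 h replicate 3 were too. A difference in the share of macrophages and a difference in RNA per cell cannot be told apart in bulk libraries.

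The first question was whether expression of these genes differed between cells labelled FosKO and LysM-Cre. All 7 members were higher in FosKO at 0.5 h, and 5 of 7 at 1 h and at 2 h, by limma with an adjusted p under 0.05. Over all 13901 genes tested, 21.2%, 18% and 24.4% were called higher at those times, and the median difference was 0.00. The member median was 0.82 at 0.5 h, 0.41 at 1 h and 0.36 at 2 h. At 0 h, where the choice was made, 7 of 7 members were higher without overlap (median 0.64), beside 24% of all genes higher without overlap and 19.5% called higher. FosKO libraries lay above all LysM-Cre libraries for 6 members at 0.5 h and for 5 at 1 h and at 2 h, beside 25.9%, 23.7% and 28.9% of all genes.

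**Figure D1:**
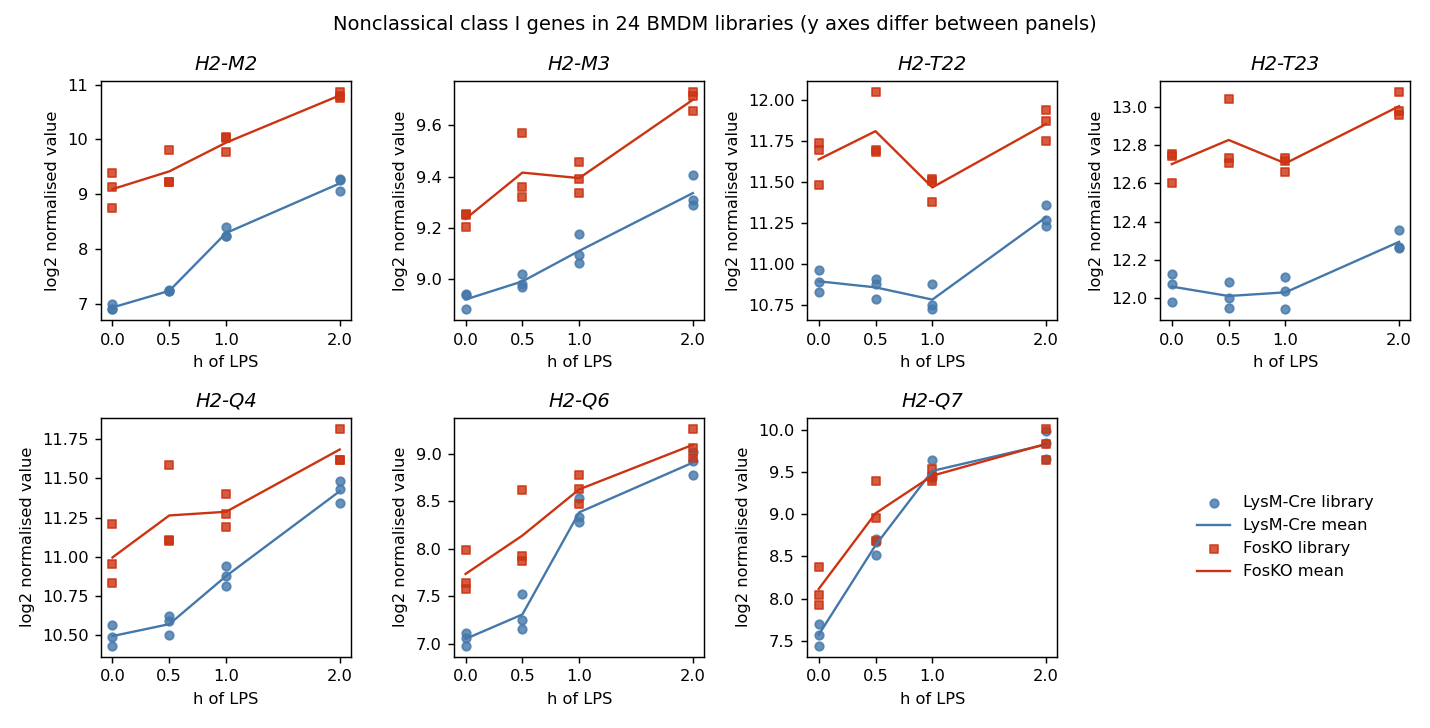
Log2 normalised value of each member (y axis, differing between panels) against hours of LPS (x axis), with 1 point per library and lines through group means. FosKO libraries lie above LysM-Cre libraries at every time for H2-M2, H2-M3, H2-T22, H2-T23 and H2-Q4, while those of H2-Q7 overlap from 0.5 h on.

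H2-M2 had the largest difference of the 7. At 0 h its LysM-Cre libraries read 6.90, 6.99 and 6.90 and its FosKO libraries 8.74, 9.14 and 9.39, a difference of 2.16 that ranked 4 from the top of all genes. At 0.5 h the LysM-Cre libraries read 7.24, 7.22 and 7.23 and the FosKO libraries 9.22, 9.23 and 9.80. Every FosKO library exceeded every LysM-Cre library at both times. At 1 h the values were 8.23, 8.24 and 8.39 in LysM-Cre and 9.77, 10.04 and 10.02 in FosKO. At 2 h they were 9.06, 9.28 and 9.25 in LysM-Cre and 10.75, 10.79 and 10.87 in FosKO. The groups stayed apart, in libraries that the choice did not use. The difference was 2.18 ± 0.14 (SE; limma, adjusted p = 2.29e-10) at 0.5 h, 1.65 ± 0.14 (adjusted p = 1.33e-08) at 1 h and 1.61 ± 0.14 (adjusted p = 1.01e-08) at 2 h, or 4.54-, 3.14- and 3.05-fold. Split by 18S level, the high set gave 2.28 at 0.5 h and 1.79 at 1 h, and the low set gave 1.99 and 1.45. In the order of group means, untreated FosKO (9.09) stood between LysM-Cre at 1 h (8.29) and LysM-Cre at 2 h (9.20), and its libraries overlapped those of LysM-Cre at 2 h. The neighbours LysM-Cre 2 h and FosKO 0.5 h, and FosKO 0.5 h and 1 h, also overlapped.

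The T region members kept a difference throughout. H2-T23 read 12.12, 12.07 and 11.98 in LysM-Cre and 12.60, 12.75 and 12.76 in FosKO at 0 h, and 12.26, 12.26 and 12.36 against 12.96, 12.98 and 13.08 at 2 h. No FosKO library of any time fell as low as the highest LysM-Cre library. Its difference was 0.82 ± 0.07 at 0.5 h, 0.68 ± 0.07 at 1 h and 0.71 ± 0.07 at 2 h (limma, adjusted p = 6.07e-08 at 2 h). H2-T22 read 11.27, 11.23 and 11.36 in LysM-Cre and 11.75, 11.87 and 11.94 in FosKO at 2 h. Its difference was 0.95 ± 0.08 at 0.5 h, 0.68 ± 0.08 at 1 h and 0.57 ± 0.08 at 2 h (limma, adjusted p = 9.09e-06 at 2 h). Of the 50-base stretches of the H2-T22 coding transcripts, 43.9% also occur in another gene, mostly H2-T10, and 28.8% of those of H2-T23, so reads may have been split among copies.

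H2-M3 differed less. It read 9.29, 9.31 and 9.41 in LysM-Cre and 9.71, 9.66 and 9.73 in FosKO at 2 h, without overlap. Its difference was 0.42 ± 0.05 at 0.5 h, 0.28 ± 0.05 at 1 h and 0.36 ± 0.05 at 2 h (limma, adjusted p = 7.10e-06 at 2 h). H2-M2 and H2-M3 share 1.61% and 0.576% of their 50-base stretches with other genes.

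In the Q region all 3 members were called at 0.5 h, while H2-Q4 alone was called at 1 h and 2 h. H2-Q4 read 10.59, 10.502 and 10.62 in LysM-Cre and 11.11, 11.10 and 11.58 in FosKO at 0.5 h (difference 0.69 ± 0.10, limma adjusted p = 1.69e-05). At 1 h it read 10.81, 10.88 and 10.94 against 11.19, 11.27 and 11.40 (0.41 ± 0.10, limma adjusted p = 0.0040), a call kept under all alternatives run. At 2 h it read 11.34, 11.43 and 11.48 against 11.62, 11.62 and 11.82 (0.27 ± 0.10, limma adjusted p = 0.0428), and that call was lost after quantile normalisation (0.13, adjusted p = 0.270). It was also lost without LysM-Cre 2 h replicate 1, 2 or 3 (0.23, 0.27 and 0.30) and without FosKO 2 h replicate 1 or 3 (0.30 and 0.20). The same 0.27 was not called with no filter (limma adjusted p = 0.0712), no variance trend (adjusted p = 0.0564) or the high 18S libraries alone (adjusted p = 0.0501). H2-Q6 differed by 0.83 ± 0.15 at 0.5 h (limma, adjusted p = 2.03e-04), and by 0.24 (95% interval -0.08 to 0.56) at 1 h and 0.19 (-0.14 to 0.51) at 2 h, which did not pass. Its 0.5 h difference was 1.07 in the high and 0.35 in the low 18S set. H2-Q7 read 8.51, 8.71 and 8.68 in LysM-Cre and 8.95, 8.68 and 9.40 in FosKO at 0.5 h. These groups overlapped, and the call (0.38 ± 0.14, limma adjusted p = 0.0394) was lost without FosKO 0.5 h replicate 3, when the difference was 0.18 (adjusted p = 0.303), and without FosKO replicate 1 (0.41) or LysM-Cre replicate 1, 2 or 3 (0.32, 0.42 and 0.40). It was also lost with no filter (adjusted p = 0.0655), only the groups compared (adjusted p = 0.127), no variance trend (adjusted p = 0.0511) and the high 18S libraries alone (adjusted p = 0.0966). At 1 h and 2 h H2-Q7 differed by -0.06 (-0.35 to 0.24) and 0.01 (-0.29 to 0.30), values whose sign changed with quantile normalisation at 2 h. H2-Q4, H2-Q6 and H2-Q7 share 24.3%, 32% and 34.9% of their 50-base stretches with other genes.

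**Figure D2:**
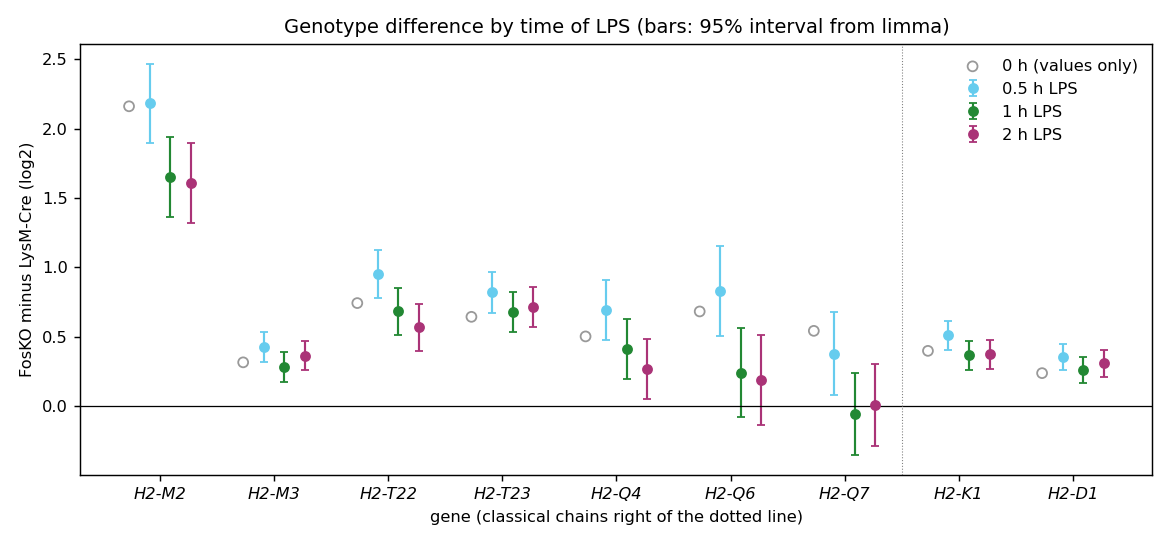
FosKO minus LysM-Cre difference (log2, y axis) for each member and the classical chains H2-K1 and H2-D1 (x axis) at each time of LPS, with 95% intervals from limma and open points without an interval at 0 h. H2-M2 lies at 1.61 or above at every time, and the intervals of H2-Q6 and H2-Q7 include 0 at 1 h and 2 h.

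The second question was how LPS itself moved the members. Both genotypes showed higher levels at 2 h than at 0 h for 6 of 6 tested members (limma), beside 30.6% of all genes called higher in LysM-Cre and 32.6% in FosKO. The rise was large in H2-Q7 and H2-Q6 and small in H2-T22, H2-T23 and H2-M3. In LysM-Cre, H2-Q7 libraries read 7.71, 7.57 and 7.44 before LPS and 9.65, 9.84 and 9.98 after it (2.25 ± 0.14, limma adjusted p = 1.63e-11). In FosKO they read 7.92, 8.05 and 8.38, then 9.83, 9.65 and 10.01 (1.72 ± 0.14, adjusted p = 1.24e-09). H2-Q6 rose by 1.85 ± 0.15 and 1.36 ± 0.15, and H2-Q4 by 0.92 ± 0.10 and 0.69 ± 0.10, in LysM-Cre and FosKO. For the 6 tested members the 2 h libraries lay above the 0 h libraries of their genotype, as they did for 33.9% of all genes in LysM-Cre and 33.3% in FosKO. H2-M3 rose by 0.42 and 0.46. H2-T22 (0.39 and 0.22) and H2-T23 (0.23 and 0.30) were called too, but after quantile normalisation H2-T23 turned to -0.07 in LysM-Cre and both turned negative in FosKO (-0.09 and -0.08). The H2-T22 call in FosKO was lost without FosKO 0 h replicate 1 (0.14) and without FosKO 2 h replicate 2 or 3 (0.21 and 0.17). H2-M2 was 2.27 higher in LysM-Cre and 1.71 higher in FosKO at 2 h than at 0 h, given without a test.

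H2-Q7 rose within 0.5 h in both genotypes. At that time it was 1.06 higher than at 0 h in LysM-Cre (limma, adjusted p = 2.35e-05) and 0.89 higher in FosKO (adjusted p = 2.30e-04), where the call was lost with only the groups compared (adjusted p = 0.0878). It was 1 of 6 tested members called in LysM-Cre (5.09% of all genes called higher) and, with H2-M3 (0.18, adjusted p = 0.0411), 1 of 2 in FosKO (4.45%). At 1 h, 4 of 6 were called higher in each genotype (19.2% and 17.6% of all genes), namely H2-M3, H2-Q4, H2-Q6 and H2-Q7. With the high 18S libraries alone, the LysM-Cre calls of H2-M3 (0.14, adjusted p = 0.230) and H2-Q4 (0.32, adjusted p = 0.152) were lost, and 2 of the 3 LysM-Cre 1 h libraries are in the low set. The H2-M3 call at 0.5 h was lost without FosKO 0 h replicate 1, 2 or 3 (0.16, 0.19 and 0.19) or FosKO 0.5 h replicate 3 (0.10). It was also lost with median-centred libraries (limma adjusted p = 0.05045), no filter (adjusted p = 0.0654) and only the groups compared (adjusted p = 0.351). No variance trend (adjusted p = 0.0539) and the high 18S libraries alone (adjusted p = 0.0627) lost it too. In FosKO at 1 h, H2-Q4 (0.29) lost its call without 0 h replicate 1 or 2 (0.21 and 0.27) or 1 h replicate 2 or 3 (0.30 and 0.24). That call was also lost after quantile normalisation (0.19, limma adjusted p = 0.111), with no filter (adjusted p = 0.0609) and with only the groups compared (adjusted p = 0.0784). The FosKO call of H2-M3 at 1 h (0.16) was lost without 0 h replicate 1 or 1 h replicate 2 (0.14 and 0.13). The high 18S libraries alone also lost it (0.16, limma adjusted p = 0.063). H2-T22 and H2-T23 were not called at 1 h, with differences of -0.11 and -0.03 in LysM-Cre and -0.17 and 0.00 in FosKO. After quantile normalisation all 4 were called lower (limma), at -0.23 and -0.22 in LysM-Cre and -0.30 and -0.16 in FosKO, and H2-T22 in FosKO was also called lower without FosKO 0 h replicate 1 (-0.25). In libraries that the choice of H2-M2 did not use, H2-M2 rose from 0.5 h to 2 h by 1.96 ± 0.14 in LysM-Cre (limma, adjusted p = 9.02e-11) and by 1.39 ± 0.14 in FosKO (adjusted p = 2.08e-08). Over that step 7 of 7 members rose in LysM-Cre (29.9% of all genes) and 6 of 7 in FosKO (31.5%), the exception being H2-T22 (0.04). After quantile normalisation the H2-T23 step in LysM-Cre was 0.06 (adjusted p = 0.403) and the H2-Q4 step in FosKO 0.20 (adjusted p = 0.0703), neither called, and in FosKO H2-T22 was called lower (-0.20, adjusted p = 0.0225) and H2-T23 was -0.12, not called. The H2-T23 call in FosKO (0.18) was lost without 0.5 h replicate 1 or 2 (0.13 and 0.12) or 2 h replicate 3 (0.14). It was also lost with no filter (limma adjusted p = 0.0555), only the groups compared (adjusted p = 0.127) and the high 18S libraries alone (0.13, adjusted p = 0.171).

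**Figure D3:**
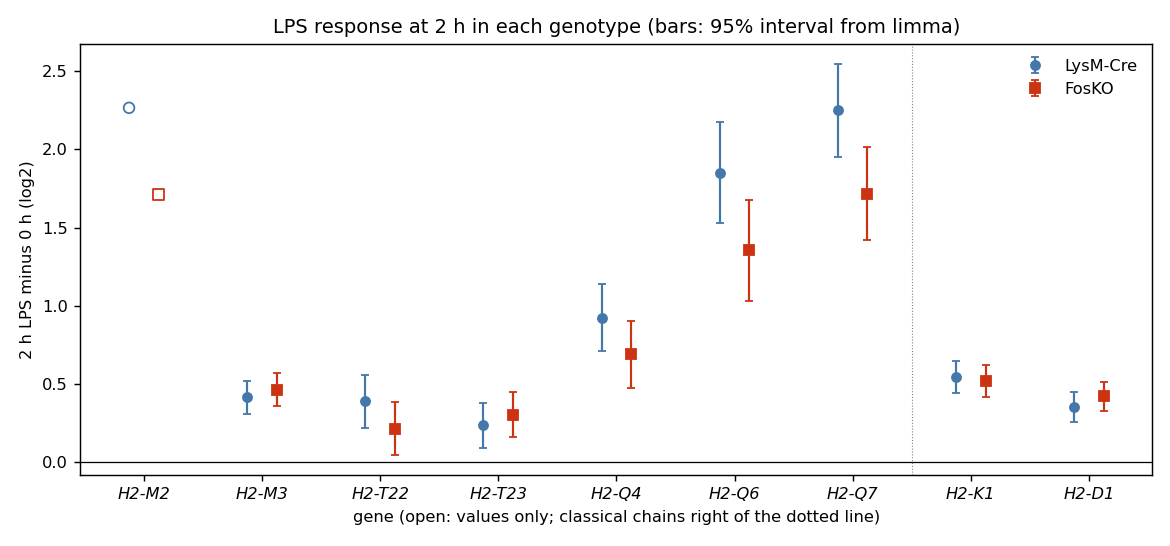
Difference between 2 h of LPS and 0 h (log2, y axis) in LysM-Cre (circles) and FosKO (squares) for each member and the classical chains (x axis), with 95% intervals from limma and open points without an interval for H2-M2. H2-Q7 rose by 2.25 and 1.72 and H2-Q6 by 1.85 and 1.36, against 0.23 and 0.30 for H2-T23.

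The third question was whether the LPS response differed between genotypes. By limma, 0 of 6 tested members were called at 0.5 h, at 1 h or at 2 h, and 0, 1 and 2 had an unadjusted p under 0.05. Over all genes, 0.115%, 1.22% and 15% were called. The differences nearest to the threshold at 2 h were H2-Q7 (-0.54, 95% interval -0.96 to -0.11, adjusted p = 0.0834) and H2-Q6 (-0.50, -0.95 to -0.04, adjusted p = 0.147). H2-Q7 was called without FosKO 0 h replicate 1 (-0.63) and after quantile normalisation (-0.61), and H2-Q6 with only the groups compared (adjusted p = 0.0442). For H2-M2 the value was -0.55. The step from 0.5 h to 2 h could be tested for all members, and it was smaller in FosKO for 4 of 7 (limma; 8.7% of all genes were called lower). H2-M2 differed by -0.58 ± 0.19 (adjusted p = 0.0429), H2-Q4 by -0.43 ± 0.15 (adjusted p = 0.0463), H2-T22 by -0.38 ± 0.12 (adjusted p = 0.0244) and H2-Q6 by -0.64 ± 0.22 (adjusted p = 0.0455). Without FosKO 0.5 h replicate 3, 0 of 7 were called and the differences were -0.38, -0.27, -0.26 and -0.40. The count was also 0 without LysM-Cre 0.5 h replicate 2, LysM-Cre 2 h replicate 3 or FosKO 2 h replicate 1, where the differences moved less (H2-M2 -0.57, -0.55 and -0.55, H2-Q4 -0.39, -0.40 and -0.40, H2-T22 -0.35, -0.35 and -0.33, H2-Q6 -0.61, -0.58 and -0.63). It was 1 without LysM-Cre 0.5 h replicate 1, LysM-Cre 2 h replicate 2 or FosKO 2 h replicate 2, and 2 without LysM-Cre 0.5 h replicate 3. With all libraries, the count was 1 with median-centred libraries, no filter or no variance trend, and 2 with only the groups compared.

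The classical chains moved with the members. H2-K1 was higher in FosKO by 0.51, 0.36 and 0.37 and H2-D1 by 0.36, 0.26 and 0.31 at 0.5, 1 and 2 h, and all 6 differences were called (limma). Genes of the light chain and peptide loading list, which supply peptides to class I, were called higher in FosKO for 14 of 14 at 0.5, 1 and 2 h (limma). Over all genes tested 21.2%, 18% and 24.4% were called higher at those times. The list medians were 0.68, 0.48 and 0.43. The list holds Tap1, a peptide transporter subunit (0.75 ± 0.10), Psmb10, an immunoproteasome subunit (0.62 ± 0.08), and Tapbp, which bridges class I to the transporter (0.57 ± 0.07). Among the transactivators 3 of 5 were higher and 0 lower at 0.5 h, 1 higher and 0 lower at 1 h, and 2 higher and 2 lower at 2 h. At 2 h Nlrc5, the class I transactivator, differed by 1.02 ± 0.10 and Irf1, an interferon-response factor, by 0.35, whereas Rfxank (-0.28) and Rfxap (-0.22), subunits of the RFX complex, were lower and Rfx5, the third subunit, was not called (-0.04).

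Of 23 other MHC-linked nonclassical genes listed, only 8 had values, and 5 of those passed the filter and were tested. At 0.5, 1 and 2 h, 5 of 5, 2 of 5 and 1 of 5 were called higher (limma), beside 21.2%, 18% and 24.4% of all genes. H2-T24 differed by 0.80, 0.71 and 0.94. H2-T10 (0.72, 0.53 and 0.14) was called at 0.5 h and 1 h, and H2-Q5 (0.30, 0.11 and 0.18), H2-K2 (0.40, 0.21 and -0.02) and H2-Q10 (0.33, 0.20 and -0.02) at 0.5 h alone. Of the class I-like molecules encoded outside the MHC 2 of 5 were higher at 0.5 h and 3 of 5 at 1 h and at 2 h, with 1 lower at 0.5 h and at 1 h (Fcgrt, -0.20 at each) and 0 at 2 h. Those higher at 2 h were Cd1d1, which presents lipids to NKT cells (0.53), Procr, the protein C receptor (0.57), and Mr1, which presents vitamin B metabolites to MAIT cells (0.18). Hfe, of iron regulation (0.05), and Fcgrt, the neonatal Fc receptor chain (-0.07), were not called at 2 h.

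**Figure D4:**
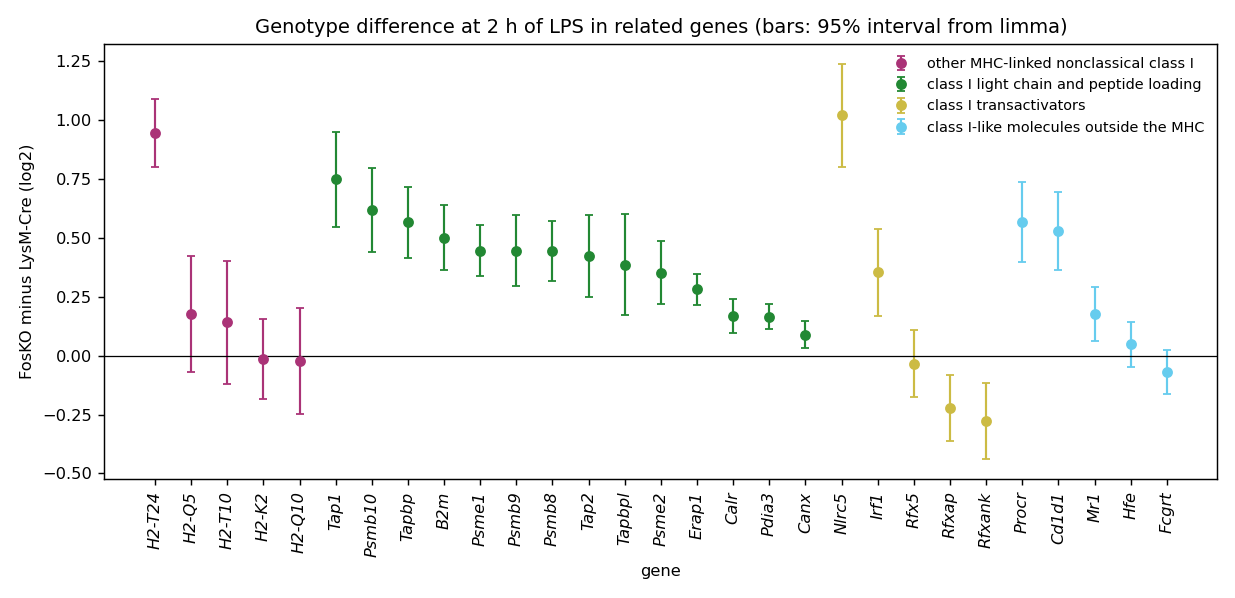
FosKO minus LysM-Cre difference at 2 h of LPS (log2, y axis) for the tested genes of 4 lists (x axis, colours), with 95% intervals from limma. All 14 loading genes lie above 0, and Nlrc5 (1.02) and H2-T24 (0.94) lie highest.

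Across the 24 libraries the 21 pairs of members correlated between 0.3 (H2-T22 and H2-Q7) and 0.977 (H2-T22 and H2-T23). These are descriptions, since the libraries share genotype, time and normalisation. The genes most like H2-M2 among 11914 protein-coding genes were Psmb6 (r = 0.994), Cybb (0.992), Il2rg (0.990), Ccl12 (0.989) and Saa3 (0.987). Those most like H2-T23 were Ube2l6 (0.994), Zbp1 (0.993), Phf11d (0.993), Ms4a6c (0.993) and Lgals9 (0.993).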

How the data were processed

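RNA from 24 BMDM libraries was sequenced as single-end, strand-specific reads. Per the study methods and the submitters' processing notes, the authors aligned with STAR 2.5.2a, quantified with RSEM 1.2.31 and normalised with DESeq2 (1.16.1 in the notes). The build named is GRCm38. The deposited values are on a log2 scale and shrink low genes, and depth per library is unknown. The exact transformation is not given in the sources used here. Identifiers are Ensembl genes. Members and lists, and the plan of tests, were chosen with earlier results of these data known.

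Genes with a linear value of at least 5 in at least 3 libraries were tested (13901). limma 3.58.1 (R 4.3.3) was fitted to the deposited log2 values of all 24 libraries with 8 group means (16 residual degrees of freedom), with an empirical Bayes trend and Benjamini-Hochberg adjustment over all tested genes. A call was an adjusted p under 0.05, and 16 comparisons were drawn. Named genes were all members, H2-K1 and H2-D1, every tested gene of 3 related lists, the 3 loading genes with the largest difference at 2 h, and the 5 genes most like H2-M2 and H2-T23. Fos (the targeted gene) and Lyz2 (the Cre locus) are given beside the labels, and Rn18s-rs5 for the 18S sets. Marker genes of other cell types are named where they were called between genotypes, chosen after their values were seen. Macrophage markers, apart from Lyz2, are given as row counts only. Alternatives changed the scaling, filter, pseudocount, libraries fitted, variance model, replicate block and 18S set, or left out each replicate. No protein comparison was made. P-values measure the spread between these libraries.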

Additional observations from a re-analysis of the deposited data

Results flagged for a closer look

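The step from 0.5 h to 2 h of LPS differed between genotypes by limma for 4 members, with a lower value in FosKO for each, beside 8.7% of all genes called lower. H2-T22 rose in LysM-Cre (0.43) and was not called in FosKO (0.04). The differences in step, FosKO minus LysM-Cre, were -0.5759 for H2-M2, -0.4278 for H2-Q4, -0.383 for H2-T22 and -0.6415 for H2-Q6, on the log2 scale. FosKO 0.5 h replicate 3, which was the highest of its group for 7 of 7 members, entered each of them. Without it 0 of 7 members were called and the differences were -0.38, -0.27, -0.26 and -0.40. The count was also 0 without LysM-Cre 0.5 h replicate 2, LysM-Cre 2 h replicate 3 or FosKO 2 h replicate 1, but the differences moved less, for H2-M2 to between -0.57 and -0.55. With median-centred libraries, no filter or no variance trend the count was 1, and with only the groups compared it was 2.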

How the results depend on the processing

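For single members, 96 results had 1590 alternative values, of which 1455 kept their direction and side of the threshold, 91 lost a call, 13 gained one and 31 changed sign. H2-M2 kept its genotype call at 0.5, 1 and 2 h under all alternatives run (1.47 to 1.65 at 2 h). The count of members with a different LPS response at 2 h was 0, but 1 with quantile normalisation, 1 with only the groups compared and 2 with the replicate block (H2-Q6 and H2-Q7), and 0 to 1 when leaving out a replicate. The count for the step from 0.5 to 2 h was 4, but 1 with median-centred libraries, 1 with no filter, 2 with only the groups compared and 1 with no variance trend, and 0 to 4 when leaving out a replicate. No label says what a replicate number shares, and the numbers were not taken to pair the samples. Deviations of same-numbered libraries correlated between -0.527 and 0.314 across genotypes, -0.248 and 0.415 across times in LysM-Cre, and -0.000773 and 0.706 in FosKO (median 0.0988, against -0.0363 for different numbers). With the block, H2-T22 at 1 h and H2-Q4 and H2-Q6 at 0.5 h of LPS in FosKO also gained calls. Quantile normalisation reversed H2-Q7 between genotypes at 2 h (-0.039), H2-T23 at 2 h of LPS in LysM-Cre (-0.069), H2-T23 at 1 h in FosKO (-0.163), H2-T22 and H2-T23 at 2 h in FosKO (-0.088 and -0.075), the response differences of H2-M3 and H2-T23 at 2 h (-0.0012 and -0.0064), and the FosKO step from 0.5 to 2 h of H2-T22 and H2-T23 (-0.200 and -0.121). With the high 18S libraries alone, H2-Q7 between genotypes at 1 h was 0.032, the response differences at 1 h of H2-M3, H2-T22 and H2-Q4 were 0.018, 0.044 and 0.022, and the FosKO step of H2-T22 was -0.012. Leaving out a replicate gave, between genotypes, H2-Q7 -0.097 to 0.0080 at 1 h and -0.084 to 0.099 at 2 h. For LPS at 1 h it gave H2-T23 -0.071 to 0.014 in LysM-Cre and -0.046 to 0.031 in FosKO. For the response difference it gave H2-Q7 -0.358 to 0.0012 and H2-Q6 -0.095 to 0.281 at 0.5 h, and H2-T23 -0.016 to 0.074, H2-M3 -0.062 to 0.0011 and H2-Q4 -0.175 to 0.014 at 1 h. It gave the FosKO step of H2-T22 -0.020 to 0.163 and the step difference of H2-M3 -0.108 to 0.016. The cause of these changes was not tested. Depth per library is unknown, so its limit on low members could not be stated.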
